A study of Ovis aries with 15 samples.

Results

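Tight junctions seal the space between neighbouring epithelial cells, and claudins are the membrane proteins that set which ions and how much water pass between the cells. Some claudins form pores and others act as barriers, so each segment of the nephron carries its own set. Occludin is a second membrane protein of these junctions, and ZO-1, the product of TJP1, is the scaffold that ties them to actin. The 10 genes described here are CLDN1, CLDN2, CLDN3, CLDN4, CLDN7, CLDN8, CLDN14, CLDN15, OCLN (occludin) and TJP1, taken by symbol from the 25592 genes of the expression table, and all 10 were present.

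The kidneys came from male Dorper × Small-tailed Han sheep of 4 months, fed a total mixed ration for 21 days, with 5 libraries from 5 sheep in each of 3 groups. The CON group was given neither additive. In the AFB1 group the ration carried 500 μg of aflatoxin B1, a toxin of moulds, per kg of dry matter, and in the AFB1_CUR group it carried that dose plus 800 mg of curcumin, a polyphenol of turmeric, per kg. The comparisons asked whether the toxin changed kidney transcripts and whether curcumin changed them in its presence. Each library was made from polyadenylated RNA of a frozen piece of kidney, and the share of cortex and medulla in each piece is not given. Levels are FPKM, fragment counts per kilobase of transcript scaled to the library total, so they can be set side by side between genes.

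Total counts ran from 50255295 to 68747047 per library, and no pair of libraries held identical counts. The library of AFB1 replicate 1 went against its tissue label. Its proximal tubule score, the mean log2(FPKM + 1) of 8 markers, was 1.71 against 6.52 to 8.24 in the other 14 libraries, its thick ascending limb score was 0.13 against 3.76 to 5.56, and its hepatocyte score was 11 against 1.73 to 3.52, with albumin at 25700 FPKM. Of the 8 proximal tubule markers, only GATM went the other way, at 359 FPKM against 36.4 to 233 in the others. The library was therefore left out of the tests, which used 14 libraries (5 CON, 4 AFB1, 5 AFB1_CUR), its values are given apart, and each comparison is also given with all 15.

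Coordinates were those of the deposited table, and for all 10 genes the start and end were the same as in the RefSeq annotation of assembly ARS-UI_Ramb_v3.0. CLDN4, CLDN3 and CLDN15 lay on chromosome 24, with CLDN4 at chr24:33940651-33942111 on the minus strand and CLDN3 at chr24:33971263-33972533 on the plus strand, 29.2 kb apart, and CLDN15 at chr24:35899575-35904865 (plus). Chromosome 1 carried CLDN8 at chr1:126339803-126341910 (plus), CLDN1 at chr1:197852420-197867634 (plus) and CLDN14 at chr1:269353472-269481515 (minus), with gaps of 71510.5 and 71485.8 kb between them. CLDN7 lay at chr11:26861128-26862771 (minus), OCLN at chr16:10341770-10390839 (minus), TJP1 at chr18:26229591-26492854 (minus) and CLDN2 at chrX:128411238-128413957 (minus). CLDN14 overlapped the short gene LOC114110994 on the same strand, so reads of the pair may not be separable, and none of the other 9 overlapped an annotated gene.

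CLDN2 dominated the claudin transcripts of these kidneys. CLDN2 is the cation and water pore of the proximal tubule, and its mean was 391 ± 158 FPKM (SD, n = 14). It made up 37.5% to 75% of the summed FPKM of the 21 claudins in the table, with a median of 62.6%, and the summed level itself ran from 425 to 909 FPKM. The next claudin by median share was CLDN10, which is not among the 10 genes, with a median of 12.9% and a range of 9.23% to 16.3%. CLDN8 had a median of 6.51% and ran from 2.95% to 16.3%.

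The other genes followed in 3 tiers. The claudins known from the collecting duct and distal nephron came next, with CLDN8, a paracellular barrier to cations, at 38.4 ± 11.7 FPKM, CLDN4, which acts with it, at 35.2 ± 10, and CLDN7, which is found largely on the basolateral membrane, at 23.5 ± 6.73 (SD, n = 14 each). CLDN1, a sealing claudin, averaged 13.1 ± 3.32, OCLN averaged 10.2 ± 3.55 and TJP1 averaged 5.83 ± 0.788. The lowest tier held CLDN3, a barrier claudin, at 2.17 ± 1.69, CLDN15, a cation pore known best from the intestine, at 1.22 ± 1.07, and CLDN14, a cation barrier of the thick ascending limb, at 0.276 ± 0.209.

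Of the 9 pairs of neighbours in this order, 8 differed within libraries on the log2(FPKM + 1) scale, with p from 0.000122 to 0.00867 (exact sign-flip permutation test, two-sided). The order was set by mean FPKM in the same 14 libraries, so these p values describe it and are not separate support for it. The pair that did not pass was CLDN8 and CLDN4, where CLDN8 was the higher in 9 of 14 libraries (mean log2 difference 0.12, SD 0.33, exact permutation p = 0.192). The length implied by the count, FPKM and library total was 24.3 kb for TJP1, against 0.686 to 4.98 kb for the others. The place of TJP1 in the order therefore depends on the length used for its FPKM.

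**Figure D1:**
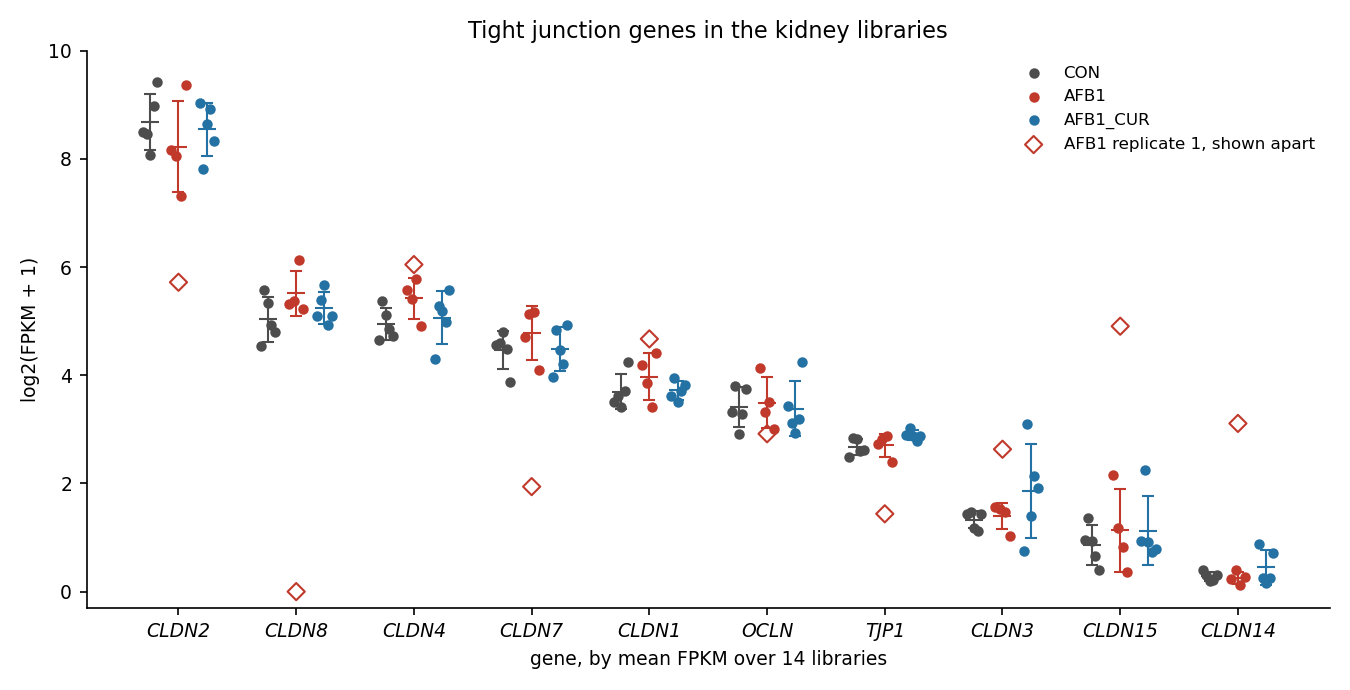
Level of each gene in every library, as log2(FPKM + 1) on the vertical axis, with genes ordered by mean FPKM on the horizontal axis. Points are libraries coloured by group (5 CON, 4 AFB1, 5 AFB1_CUR), bars are the mean and SD of each group, and open diamonds are AFB1 replicate 1. The groups overlap for all 10 genes, and the diamonds lie above every other library for CLDN1, CLDN4, CLDN14 and CLDN15 and below every other library for CLDN2, CLDN7, CLDN8 and TJP1.

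The spread between libraries differed widely among the genes. TJP1 was the most even, with a coefficient of variation of 13.5% over the 14 libraries and a highest level 1.67 times the lowest. CLDN15, CLDN3 and CLDN14 were the least even, with 87.9%, 78.0% and 75.7%. For the 13394 genes that passed the filter on low values, the median coefficient of variation was 20.6% with quartiles of 14.3% and 31.6%, so TJP1 lay below the lower quartile and CLDN2 (40.3%), OCLN (34.9%), CLDN3 and CLDN15 lay above the upper one. The 3 lowest genes also rest on few reads, since counts per library ran from 25 to 253 for CLDN14, from 25 to 307 for CLDN15 and from 63 to 586 for CLDN3.

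The pore claudin CLDN2 had the widest absolute range. In CON replicates 1 to 5 it was 362, 352, 267, 501 and 681 FPKM, in AFB1 replicates 2 to 5 it was 285, 265, 159 and 655, and in AFB1_CUR replicates 1 to 5 it was 522, 223, 400, 483 and 322. AFB1 replicates 2, 3 and 4 were near or below the lower end of the CON range, AFB1 replicate 5 was second only to CON replicate 5, and all 3 groups overlapped. CLDN15, the other cation pore, was 0.936, 1.57, 0.924, 0.569 and 0.321 FPKM in CON, 3.46, 1.27, 0.779 and 0.281 in AFB1 replicates 2 to 5, and 0.909, 3.77, 0.884, 0.653 and 0.737 in AFB1_CUR. It was high in AFB1 replicate 2 and AFB1_CUR replicate 2 and near 1 FPKM or lower in most others.

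Among the barrier claudins of the distal nephron, CLDN4 was 24.3, 40.2, 33.5, 28.1 and 25.4 FPKM in CON, 47.0, 41.7, 53.9 and 29.0 in AFB1 replicates 2 to 5, and 18.6, 37.9, 35.4, 30.8 and 47.0 in AFB1_CUR. In AFB1 all but replicate 5 were above the highest CON library. CLDN8 was 22.4, 46.6, 39.5, 29.3 and 26.8 FPKM in CON, 39.0, 40.7, 69.2 and 36.5 in AFB1, and 33.4, 41.2, 50.0, 29.5 and 33.0 in AFB1_CUR. Its highest value belonged to AFB1 replicate 4, and the other AFB1 libraries lay within the CON range. CLDN7 was 22.6, 23.1, 26.9, 21.3 and 13.6 FPKM in CON, 25.2, 34.2, 34.9 and 16.2 in AFB1, and 14.7, 27.6, 21.2, 17.5 and 29.6 in AFB1_CUR. AFB1 replicates 3 and 4 were the highest 2 libraries, and CON replicate 5 was the lowest.

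The sealing claudin CLDN1 was 10.4, 11.2, 9.66, 12 and 18 FPKM in CON, 17.2, 13.5, 9.69 and 20.4 in AFB1 replicates 2 to 5, and 11.3, 14.4, 10.4, 12 and 13.2 in AFB1_CUR. CON replicate 5 was higher than every AFB1_CUR library. CLDN3 was 1.70, 1.76, 1.27, 1.18 and 1.71 FPKM in CON, 1.95, 1.88, 1.77 and 1.05 in AFB1, and 0.691, 7.54, 1.62, 3.42 and 2.78 in AFB1_CUR. The AFB1_CUR group thus held both the lowest and the 3 highest libraries of CLDN3. CLDN14 was 0.322, 0.233, 0.151, 0.155 and 0.244 FPKM in CON, 0.168, 0.318, 0.0952 and 0.212 in AFB1, and 0.835, 0.193, 0.118, 0.184 and 0.634 in AFB1_CUR. It stayed under 1 FPKM in all 14 libraries.

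Occludin was 9.0, 12.9, 6.51, 8.77 and 12.4 FPKM in CON, 16.6, 9.02, 10.3 and 7.04 in AFB1 replicates 2 to 5, and 9.77, 7.67, 6.62, 8.18 and 17.9 in AFB1_CUR. The highest library of each toxin group, AFB1 replicate 2 and AFB1_CUR replicate 5, was above every CON library. TJP1 was 4.63, 6.17, 6.05, 5.07 and 5.17 FPKM in CON, 5.64, 6.10, 6.30 and 4.28 in AFB1, and 6.46, 7.16, 6.37, 5.91 and 6.33 in AFB1_CUR. AFB1_CUR replicates 1, 2, 3 and 5 were above every CON and AFB1 library.

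Compared with the CON group, the AFB1 group showed no called change in any of the 9 genes tested, where a call needed a fold change over 1.5 together with an unadjusted p under 0.05 (edgeR quasi-likelihood test). CLDN4 and CLDN8 had an unadjusted p under 0.05 but a fold change under 1.5. CLDN4 averaged 42.9 ± 10.5 FPKM (SD, n = 4) in AFB1 and 30.3 ± 6.58 (n = 5) in CON, a log2 fold change of 0.50 (SE 0.22, edgeR adjusted p = 0.957). CLDN8 averaged 46.4 ± 15.3 and 32.9 ± 9.90, a log2 fold change of 0.51 (SE 0.23, edgeR adjusted p = 0.957). Of the 13394 genes tested, 1.78% were called and 5.00% had an unadjusted p under 0.05, and no gene had an adjusted p under 0.05 (670 genes at an unadjusted p under 0.05, and 19 genes with an adjusted p under 0.05 by DESeq2). CLDN14 was under the filter on low values and was not tested.

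Of the 9 genes, 8 had an estimate above 0 and their median log2 fold change was 0.31, against a median of 0.02 over all genes. With all 15 libraries 7 were above 0 and the median was 0.20. When each of the 14 libraries was left out, the median ran from 0.18 without AFB1 replicate 2, where CLDN15 fell under the filter and 6 of 8 genes were above 0, to 0.32, and it was 0.19 without AFB1 replicate 4 with 7 of 9 above 0. With the 14 libraries none of the other genes had an unadjusted p under 0.05. CLDN7 was at 0.35 (SE 0.24), 0.19 without AFB1 replicate 4 and 0.51 without AFB1 replicate 5. CLDN1 was at 0.31 (SE 0.23), 0.07 without AFB1 replicate 5 and 0.50 without CON replicate 5. The rest were 0.68 for CLDN15 (SE 0.64), 0.11 for CLDN3 (SE 0.45), 0.09 for OCLN (SE 0.29), 0.04 for TJP1 (SE 0.11) and −0.32 for CLDN2 (SE 0.43). The 9 estimates come from the same libraries, and CLDN4 and CLDN7 rose together across them (r = 0.811), so they are not separate evidence.

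Marker scores of the tubule also differed between these libraries. The proximal tubule score was 6.73 to 7.00 in AFB1 replicates 2 to 4 and 8.04 in AFB1 replicate 5, against 7.29 to 8.24 in CON, and the distal convoluted tubule score was 3.48 to 4.01 in AFB1 against 3.17 to 3.74 in CON. Without AFB1 replicate 5, CLDN2 was called lower in AFB1 (log2 fold change −0.94, SE 0.37, edgeR adjusted p = 0.721) and CLDN4 was called higher (0.61, SE 0.22, edgeR adjusted p = 0.721), where 3.51% of all genes were called. CLDN4 and CLDN8 were both called without CON replicate 2 (log2 fold changes 0.59 and 0.63, with 2.01% of all genes called), and CLDN8 was called without AFB1 replicate 2 (0.61, with 1.71% called). Without AFB1 replicate 4 the estimates were 0.35 for CLDN4, 0.23 for CLDN8 and −0.08 for CLDN2, with an unadjusted p above 0.05 for each. The CLDN2 estimate was −0.09 without CON replicate 5. The part of tubule composition in these values was not tested, and in pieces of whole kidney fewer cells of a type and less RNA per cell cannot be told apart.

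With AFB1 replicate 1 included, 3 of the 9 genes were called higher in AFB1 than in CON. These were CLDN15 (log2 fold change 3.63, SE 1.18, edgeR adjusted p = 0.571), CLDN4 (0.89, SE 0.30, edgeR adjusted p = 0.571) and CLDN1 (0.73, SE 0.32, edgeR adjusted p = 0.579). In that fit 5.05% of all genes were called, and 4.08% were called higher.

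Adding curcumin to the toxin changed none of the 9 genes by the same criteria. Compared with the AFB1 group, the AFB1_CUR group had log2 fold changes of −0.41 for CLDN4 (SE 0.22), −0.39 for CLDN7 (SE 0.24), −0.39 for CLDN1 (SE 0.23) and −0.38 for CLDN8 (SE 0.23), none with an unadjusted p under 0.05. Without AFB1 replicate 4 they were −0.26 for CLDN4, −0.24 for CLDN7 and −0.11 for CLDN8, and without AFB1 replicate 5 the estimate was −0.15 for CLDN1. CLDN3 had the largest estimate, 0.84 (SE 0.46, edgeR adjusted p = 0.9999), from 1.67 ± 0.415 FPKM (SD, n = 4) in AFB1 to 3.21 ± 2.64 (n = 5) in AFB1_CUR, and it was called without AFB1_CUR replicate 1 (1.09, with 1.05% of all genes called) and was 0.34 (SE 0.38) without AFB1_CUR replicate 2. The remaining estimates were 0.14 for TJP1, 0.11 for CLDN2, −0.12 for CLDN15 and −0.14 for OCLN. Of all genes tested, 0.993% were called, and no adjusted p was under 0.05 (311 genes at an unadjusted p under 0.05, and 3 genes with an adjusted p under 0.05 by DESeq2). The AFB1 libraries are shared with the comparison against CON, so estimates of opposite sign in the pair are not separate evidence.

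With all 15 libraries, the genes called higher in AFB1 were called lower in AFB1_CUR than in AFB1, at log2 fold changes of −3.05 for CLDN15 (SE 1.15), −0.79 for CLDN4 (SE 0.30) and −0.80 for CLDN1 (SE 0.32), where 4.10% of genes were called and 3.49% were called lower. These calls rest on AFB1 replicate 1, which held the highest level of each of these genes.

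Compared with the CON group, the AFB1_CUR group had 1 called gene of the 9, CLDN3, while 1.75% of all genes were called. CLDN3 averaged 3.21 ± 2.64 FPKM (SD, n = 5) against 1.52 ± 0.274 (n = 5), a log2 fold change of 0.95 (SE 0.43, edgeR adjusted p = 0.816). The call was lost without AFB1_CUR replicate 2, where the estimate was 0.45 (SE 0.36, edgeR adjusted p = 0.9996). When each library was left out in turn, the call held only without AFB1 replicate 5, AFB1_CUR replicate 1 or AFB1_CUR replicate 3, and it was lost in the other 11 fits, with estimates from 0.45 to 0.998. It was also lost with all 15 libraries (0.96), under the replicate block (0.68), with limma on log2(FPKM + 1) and log2(FPKM + 0.1) (0.53 and 0.66) and with only the compared groups fitted (0.95). The call was kept with DESeq2 (0.949), with RLE scaling (0.949) and with no filter on low values (0.928). AFB1_CUR replicate 2 also had the highest leukocyte score, 5.12 over 9 markers against 1.54 to 4.36 in the other 13 libraries, with the B cell marker MS4A1 ranging from 0.0263 to 46.3 FPKM over the 14 libraries. None of the 9 leukocyte markers was at 0 in any of the 14 libraries, and over them CLDN3 had a Pearson r of 0.711 with the score (permutation p = 0.0111, adjusted p = 0.051) and a Spearman rho of 0.692 (permutation p = 0.00766), which missed the threshold after adjustment. Without AFB1 replicate 2 and AFB1_CUR replicate 2, the 2 farthest from the median score, r was 0.379 (permutation p = 0.222), so that the relation rested on those libraries. The adrenal cortex score was also highest in AFB1_CUR replicate 2, at 0.99 against 0.11 to 0.68 in the other 13 libraries. CLDN3 rose with the endothelium score (5 markers) too, at a Pearson r of 0.693. This likewise missed the threshold (adjusted permutation p = 0.0507). The Spearman value was 0.837 (permutation p = 0.00033). Leaving out each of the 14 libraries in turn kept r between 0.656 and 0.714. It was 0.644 (permutation p = 0.0178) without AFB1 replicate 5 and AFB1_CUR replicate 1, and −0.239 with all 15 libraries. What part such cells have in the call was not tested.

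TJP1 was at 6.44 ± 0.452 FPKM (SD, n = 5) in AFB1_CUR and 5.42 ± 0.665 (n = 5) in CON, with a log2 fold change of 0.18 (SE 0.10, edgeR adjusted p = 0.816). By an exact permutation test on log2(FPKM + 1), two-sided, this difference had p = 0.0238, and p = 0.714 after adjustment over 30 such tests. It was the only p under 0.05 among these 30 (10 genes in 3 comparisons). In none of the 30 were the groups free of overlap, where 1.53% of all genes tested had no overlap between AFB1 and CON, 0.679% between AFB1_CUR and AFB1, and 0.732% between AFB1_CUR and CON. Among all genes tested, 747 had an unadjusted p under 0.05 and 0 an adjusted p under 0.05 by edgeR, and 2 had one by DESeq2. With all 15 libraries none of the 9 genes was called, where 1.12% of genes were.

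**Figure D2:**
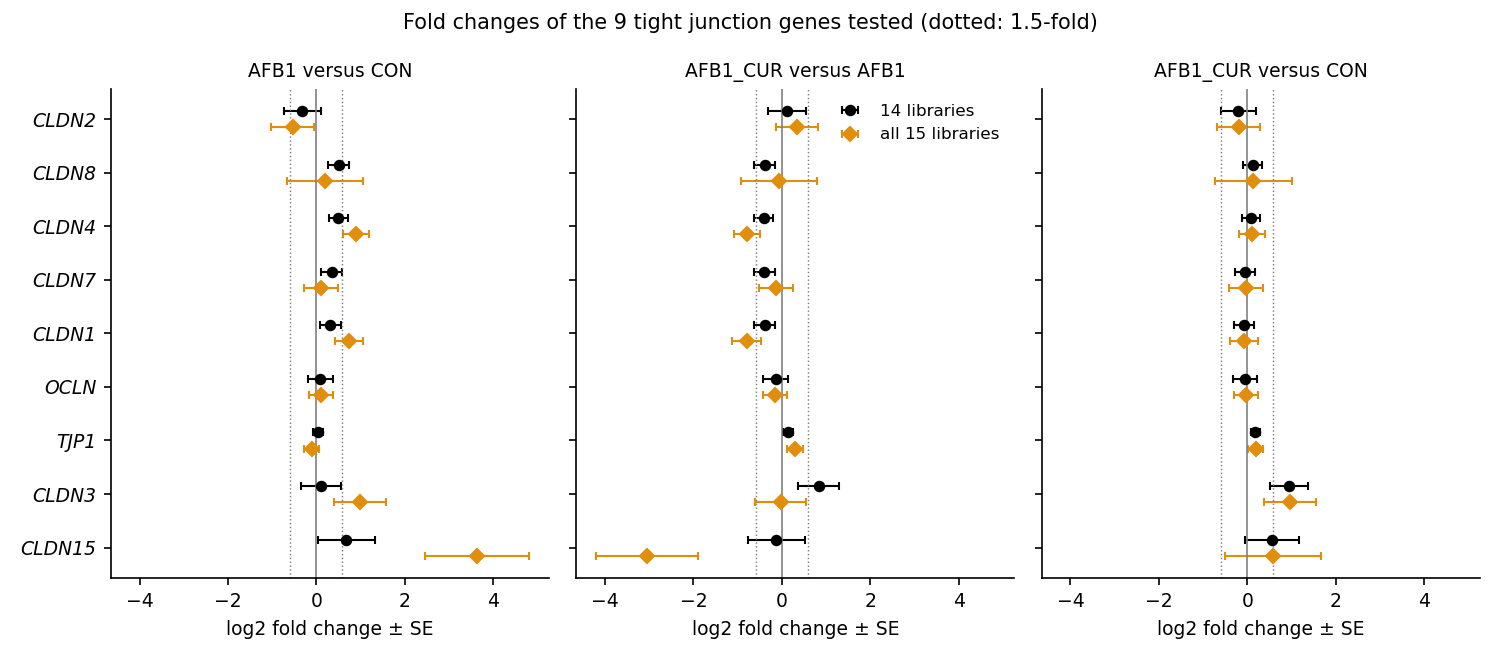
Log2 fold change on the horizontal axis with its standard error for the 9 genes tested, by comparison. Black circles are the fit of 14 libraries, orange diamonds the fit of all 15, and dotted lines mark a 1.5-fold change. The 2 fits part most for CLDN15, at 0.68 and 3.63 in AFB1 versus CON.

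The other genes of the tight junction and adherens junction gave 1 call with the 14 libraries, and 8 in AFB1 versus CON when AFB1 replicate 5 was left out (3 higher and 5 lower, where 3.51% of all genes were called). Of 59 further genes tested (6 other claudins, 24 scaffold, tricellular, adhesion and polarity partners, 19 regulators and 10 adherens junction genes), 1 was called in AFB1 versus CON, and none was called in AFB1_CUR versus AFB1 or in AFB1_CUR versus CON, where 1.78%, 0.993% and 1.75% of all genes were called. The fit of all 15 libraries gave 2, 3 and 0 calls, where 5.05%, 4.10% and 1.12% of all genes were called. The called gene was PARD6A, a polarity adaptor of the apical junction, which was lower in AFB1. It averaged 0.633 ± 0.191 FPKM (SD, n = 4) in AFB1 and 1.14 ± 0.287 (n = 5) in CON, with a log2 fold change of −0.86 (SE 0.26, edgeR adjusted p = 0.957). PARD6A reached the 1 FPKM of the filter in 4 of 5 CON libraries, 0 of 4 AFB1 libraries and 1 of 5 AFB1_CUR libraries, so it passed the filter mainly through the group in which it was high, and its call is given as a description. The median log2 fold change of the 59 genes was 0.01, against 0.02 over all genes, and 31 of 59 estimates were above 0.

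The most abundant of these genes were not called in any of the 3 comparisons. CDH16, the kidney-specific cadherin, averaged 637 ± 135 FPKM (SD, n = 14), with log2 fold changes from −0.37 to −0.18. CLDN10, a pore claudin of the proximal tubule and thick ascending limb, averaged 78.4 ± 21.3 with log2 fold changes from −0.24 to −0.08, and EPCAM, which stabilises claudins at the membrane, averaged 68.6 ± 13.8 with −0.23 to 0.21.

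Levels of several genes tracked the marker scores of particular nephron segments across the 14 libraries. Pearson and Spearman correlations of log2(FPKM + 1) were computed for the 10 genes with 5 segment scores, which gave 50 relations, and 8 of them had an adjusted permutation p under 0.05. Both values of a point come from the same library and divide by the same total, and the pieces may differ in their makeup, so these relations describe libraries.

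CLDN2 rose with the proximal tubule score, with r = 0.924 (adjusted p = 0.0005, permutation p = 1e-05, the smallest that 100000 permutations can give) and rho = 0.938 (permutation p = 1e-05). Without CON replicate 5 and AFB1_CUR replicate 2, the libraries farthest from the median score, r was 0.908, and after the group means were subtracted it was 0.920. The 3 genes that fell with the proximal tubule score were CLDN7 (r = −0.828, p = 0.00028, rho = −0.824, p = 0.00046, adjusted p = 0.0033 for r), CLDN15 (r = −0.801, p = 0.00033, rho = −0.793, p = 0.00115, adjusted p = 0.0033) and CLDN4 (r = −0.752, p = 0.00221, rho = −0.732, p = 0.00407, adjusted p = 0.0184), all by permutation. Without the same 2 libraries r was −0.813, −0.678 and −0.800. The CLDN4 relation did not pass without AFB1 replicate 4 (r = −0.703, adjusted permutation p = 0.0597). With AFB1 replicate 1 included, the CLDN7 relation turned to r = 0.683, and r was 0.925 for CLDN2, −0.955 for CLDN15 and −0.694 for CLDN4.

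OCLN rose with the thick ascending limb score, with r = 0.923 (adjusted p = 0.0005, permutation p = 2e-05) and rho = 0.859 (p = 0.0002). Without AFB1 replicate 2 and AFB1_CUR replicate 5 its r was 0.838. CLDN8 rose with the distal convoluted tubule score, with r = 0.867 (adjusted p = 0.000667, permutation p = 4e-05) and rho = 0.864 (p = 0.00016), and r was 0.880 without AFB1 replicates 3 and 4. The markers of these scores hold none of the 10 genes.

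CLDN4 and CLDN7 also rose with the intercalated cell score (r = 0.737, p = 0.00321, rho = 0.710, p = 0.00618 and r = 0.736, p = 0.00286, rho = 0.714, p = 0.00546, adjusted permutation p = 0.0201 for both). These relations rest on AFB1 replicate 4 and AFB1_CUR replicate 1, since without them r was 0.486 (permutation p = 0.111) and 0.572 (p = 0.0509). When AFB1 replicate 1 was included r was −0.263 for CLDN4 and 0.939 for CLDN7. No gene passed with the principal cell score, for which the adjusted permutation p values were above 0.05.

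**Figure D3:**
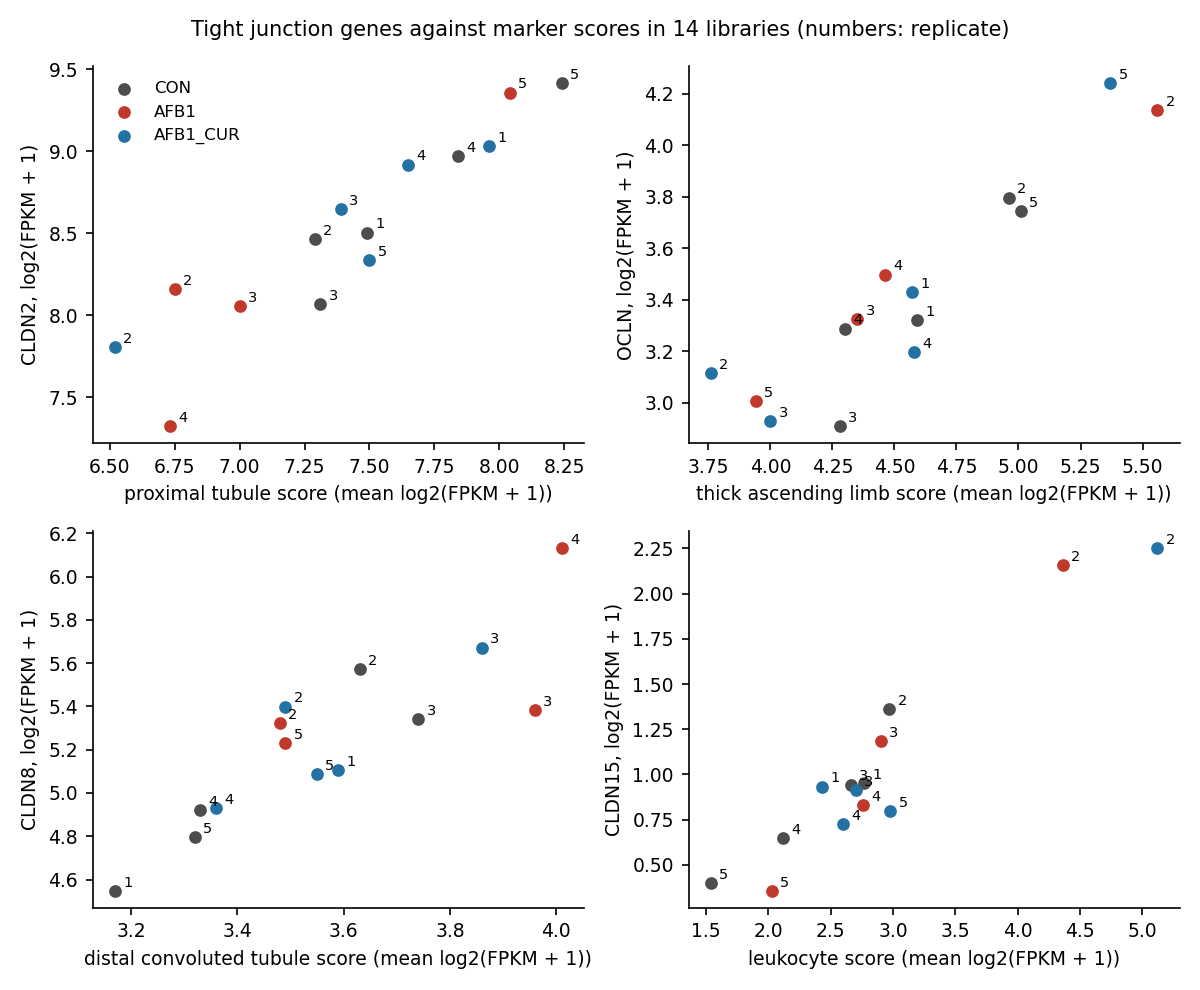
Level of a gene against a marker score in 14 libraries, both on the log2(FPKM + 1) scale, with points coloured by group and numbered by replicate. CLDN2 rises with the proximal tubule score, OCLN with the thick ascending limb score and CLDN8 with the distal convoluted tubule score, while in the CLDN15 panel AFB1 replicate 2 and AFB1_CUR replicate 2 stand apart at leukocyte scores of 4.36 and 5.12.

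Among the genes themselves, 3 of 45 pairs had an adjusted permutation p under 0.05. CLDN2 and CLDN7 ran against each other, with r = −0.917 (adjusted p = 0.00045, permutation p = 1e-05) and rho = −0.947 (p = 1e-05), and r was −0.876 without AFB1 replicate 4 and CON replicate 5. The ratio of CLDN2 to CLDN7 FPKM was lowest in AFB1 replicate 4, at 4.57, and highest in CON replicate 5, at 50.2. CLDN4 and CLDN7 rose together (r = 0.811, permutation p = 0.00061, rho = 0.820, p = 0.00063, adjusted p = 0.0137, and r = 0.708 without AFB1 replicate 4 and AFB1_CUR replicate 1). CLDN2 and CLDN4 had r = −0.749 (permutation p = 0.00196, rho = −0.771, p = 0.00197, adjusted p = 0.0294), and r was −0.636 without AFB1 replicate 4 and CON replicate 5. This last relation did not pass when AFB1 replicate 3, AFB1 replicate 4, AFB1_CUR replicate 4, CON replicate 4 or CON replicate 5 was left out, with r from −0.749 to −0.670 and adjusted permutation p from 0.0516 to 0.137. The other 2 pairs passed whichever of the 14 libraries was left out. With AFB1 replicate 1 included, r was 0.385 for CLDN2 and CLDN7 and −0.093 for CLDN4 and CLDN7, so both turned sign, and −0.803 for CLDN2 and CLDN4.

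With 6 scores of other cell types, 4 of 60 relations had an adjusted permutation p under 0.05. This family was added after the data were seen, and the count ran from 1 without AFB1_CUR replicate 2 to 13 without AFB1_CUR replicate 4, with 10 without AFB1_CUR replicate 3 and 7 without CON replicate 3. The podocyte score fell with CLDN2 (r = −0.770, p = 0.0014, rho = −0.758, p = 0.00259) and rose with CLDN7 (r = 0.745, p = 0.00183, rho = 0.815, p = 0.00061), with an adjusted permutation p of 0.0275 for both, and r was −0.597 and 0.684 without AFB1 replicates 4 and 5. Both lost the call without AFB1 replicate 4 (adjusted permutation p = 0.0527 for each) or AFB1_CUR replicate 2 (0.0621 and 0.063), and CLDN7 also without AFB1 replicate 3 (0.0555). With all 15 libraries the CLDN2 relation turned to r = 0.630, and r for CLDN7 was 0.931. CLDN15 followed the leukocyte score, for which AFB1 replicate 2 and AFB1_CUR replicate 2 stood apart from the rest. Over the other 12 libraries, whose scores ran from 1.54 to 2.98, r was 0.815 (permutation p = 0.00076). The relation of CLDN15 with an adrenal cortex score rests on the same 2 libraries, since r was 0.261 (permutation p = 0.413) without them, and the median adrenal score was 0.19. With all 15 libraries r of CLDN15 was 0.464 with the leukocyte score and 0.352 with the adrenal cortex score, against 0.953 and 0.869 over the 14.

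**Figure D4:**
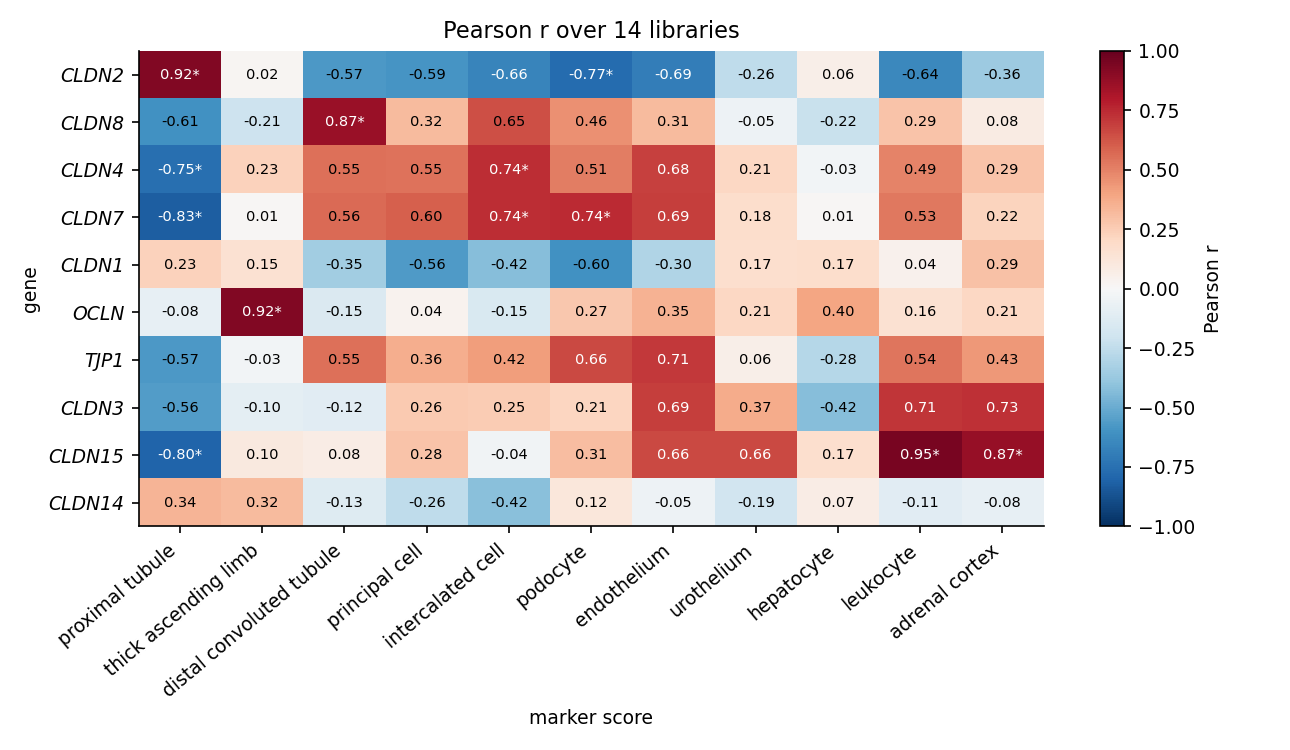
Pearson r over 14 libraries between the log2(FPKM + 1) level of each gene (rows) and the score of each marker list (columns), with colour from −1 to 1 and stars at an adjusted permutation p under 0.05. The largest values with nephron segments are 0.92 for CLDN2 with proximal tubule, 0.92 for OCLN with thick ascending limb and 0.87 for CLDN8 with distal convoluted tubule, and the leukocyte and adrenal cortex columns include 2 libraries that stand apart.

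Of 12997 genes with a mean of at least 1 FPKM, those most like each gene across the 14 libraries were found by Pearson r and are given as a description. CLDN2 was most like ENPP6 (r = 0.964) and MAP7 (r = 0.956), and CLDN7 was most like APMAP (0.959) and DDA1 (0.937). CLDN15 was most like TNFRSF18 (0.982) and S1PR4 (0.977), both of which are known from lymphocytes. CLDN4 was most like PQBP1 (0.912) and AP1M2 (0.905), CLDN8 like TOX3 (0.879) and SALL3 (0.877), and OCLN like BDKRB2 (0.913) and LOC101121916 (0.906). For CLDN3 they were PODN (0.925) and COL14A1 (0.923), both genes of the extracellular matrix, for CLDN1 RRS1 (0.911) and ETF1 (0.860), for TJP1 IMMP1L (0.930) and LOC105608474 (0.912), and for CLDN14 LOC101110904 (0.805) and ABHD14B (0.745).

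AFB1 replicate 1 had another claudin profile than the other 14 libraries. It was above all of them for 4 genes, CLDN15 (29.0 FPKM against 0.281 to 3.77), CLDN14 (7.63 against 0.0952 to 0.835), CLDN4 (65.1 against 18.6 to 53.9) and CLDN1 (24.5 against 9.66 to 20.4). It was below all of them for 4 genes, CLDN2 (51.7 against 159 to 681), CLDN7 (2.84 against 13.6 to 34.9), TJP1 (1.71 against 4.28 to 7.16) and CLDN8. CLDN8 had 0 of 56112028 counts there, which allows a level of up to 0.0235 FPKM (3 counts, for counting error only), against 22.4 to 69.2 FPKM in the others. CLDN3 (5.2 FPKM) and OCLN (6.56 FPKM) were within the range of the others.

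The share of each claudin in the summed claudin FPKM of AFB1 replicate 1 was 34.1% for CLDN4, 27.1% for CLDN2, 15.2% for CLDN15 and 12.8% for CLDN1. In the other libraries CLDN4 held 2.59% to 12.7%, CLDN15 0.0317% to 0.864% and CLDN1 1.57% to 3.31%. CLDN10, at 40.3 FPKM or more in the others, was at 0.122 FPKM. There is only 1 such library, so these are values of that library with no replicate check.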

How the data were processed

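The authors trimmed reads with cutadapt 1.9 and aligned them with HISAT2 2.2.1, and the submitters' processing notes also name StringTie 2.1.6, DESeq2 and edgeR. The libraries were stranded, and for the counting tool and its strand setting, not given in the sources used here, no assumption was made. The deposited tables held raw counts per gene and FPKM as the authors computed them. Groups were taken from the sample titles, and 0 columns were without a sample.

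Counts were tested with edgeR 4.0.16 (quasi-likelihood test, TMM) in R 4.3.3, with the 3 groups in a joint model, over genes with at least 1 FPKM in at least 4 of the libraries fitted. A call needed a fold change over 1.5 with an unadjusted p under 0.05. The study lists the same fold change and P thresholds with a further condition on log(FC), and does not say whether its P was adjusted. Benjamini-Hochberg adjusted p values cover all genes tested. Scores, correlations and exact permutation tests used log2(FPKM + 1). Alternatives were DESeq2 1.42.0, RLE scaling, no filter, limma 3.58.1, a replicate block, only the compared groups, all 15 libraries and each library left out.

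The genes and lists were chosen with earlier results of these data known. All 10 genes are named, with the list genes called in the 14 libraries, the 3 most abundant of the lists and the 2 genes most like each. Libraries came from separate sheep. Library totals limit precision for low genes. SDs and SEs include the spread between sheep, and only the limit given for a count of 0 covers counting error alone. Some list genes are not reported here.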

Additional observations from a re-analysis of the deposited data

Results flagged for a closer look

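Each gene was examined in each group for a library that stands apart by Dixon's criterion, which chance alone meets in about 1 in 20 groups. Within the 14 libraries, the 4 that met it in 30 groups were CLDN1 in CON replicate 5 (18.0 FPKM), CLDN8 in AFB1 replicate 4 (69.2 FPKM), CLDN15 in AFB1_CUR replicate 2 (3.77 FPKM) and OCLN in AFB1_CUR replicate 5 (17.9 FPKM), each the highest of its group. With AFB1 replicate 1 put back into its group, although it had been set aside for standing apart, that library was the outlying one for CLDN3 (5.2 FPKM), CLDN14 (7.63 FPKM) and CLDN15 (29.0 FPKM).

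AFB1 replicate 1, which the comparisons left out, was above every CON library for CLDN1 (24.5 FPKM), CLDN3 (5.2), CLDN4 (65.1), CLDN14 (7.63) and CLDN15 (29.0). Its hepatocyte score was 11, and its KCNJ1, SCNN1B and NPHS1, markers of 3 kinds of kidney cell, were at 0 FPKM. The source of this library was not tested.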

How the results depend on the processing

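With all 15 libraries, 3 of the 9 genes tested were called in AFB1 versus CON and 3 in AFB1_CUR versus AFB1, the list of other junction genes gave 2 and 3 calls in these comparisons, and the numbers of correlations past the threshold were 18 with segment scores and 8 between genes. Of the relations that passed with 14 libraries, those of CLDN7 with proximal tubule, CLDN4 with intercalated cells, CLDN2 with CLDN7, CLDN4 with CLDN7 and CLDN2 with podocytes turned sign with all 15. CLDN3 in AFB1_CUR versus CON was not called with all 15 libraries, with limma at either pseudocount (1 or 0.1), under the replicate block (log2 fold change 0.68) or with only the compared groups, so that 0 of the genes tested were called there under each (9 genes, and 8 with only the compared groups). It was called with DESeq2, with RLE scaling and with no filter. For the other junction genes, DESeq2 called 2, 1 and 1 in the 3 comparisons in the order above, limma on log2(FPKM + 1) called 0 in AFB1 versus CON, only the compared groups gave 2 there, and the replicate block gave 2 there and 1 in AFB1_CUR versus AFB1. Leaving out each of the 14 libraries in turn gave 0 to 2, 0 to 1 and 0 to 1 of the 8 or 9 genes tested called, 1 to 8 (8 without AFB1 replicate 5), 0 to 2 and 0 to 1 of the list, 5 to 11 segment correlations and 1 to 13 with other cell types.

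Signs turned only for estimates that were not called. These were, in AFB1 versus CON, CLDN3 under the replicate block (−0.072) and TJP1 with all 15 libraries (−0.104). In AFB1_CUR versus AFB1 they were CLDN3 with all 15 libraries (−0.029) and CLDN15 with limma at a pseudocount of 0.1 (0.080) and under the replicate block (0.021). In AFB1_CUR versus CON they were CLDN1 and CLDN7 with limma, at 0.027 and 0.026 for a pseudocount of 1 and 0.031 and 0.027 for 0.1. With a library left out, ranges that crossed 0 were, in AFB1 versus CON, −0.140 to 0.217 for OCLN and −0.045 to 0.107 for TJP1, in AFB1_CUR versus AFB1, −0.122 to 0.740 for CLDN2, −0.452 to 0.039 for CLDN15 and −0.443 to 0.093 for OCLN, and in AFB1_CUR versus CON, −0.151 to 0.106 for CLDN1, −0.351 to 0.022 for CLDN2, −0.054 to 0.230 for CLDN4, −0.173 to 0.054 for CLDN7, −0.012 to 0.243 for CLDN8 and −0.349 to 0.073 for OCLN. The cause was not tested.

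Over all genes, calls in AFB1 versus CON, AFB1_CUR versus AFB1 and AFB1_CUR versus CON numbered 238, 133 and 235, against 867, 707 and 928 with no filter, 108, 86 and 82 with limma on log2(FPKM + 1), and 678, 551 and 150 with all 15 libraries. Without AFB1 replicate 5 the first 2 were 469 and 233, without AFB1 replicate 2 the second was 275, and without AFB1_CUR replicate 2 the second and last were 207 and 131. In AFB1_CUR versus AFB1, limma at a pseudocount of 0.1 called 83 genes higher and 62 lower, against 60 and 73. Over 13 same-numbered pairs of libraries, with group means subtracted, r ran from −0.27 to 0.55, and 5 were over 0.1. The pairs of replicate 2 were among these (0.389, 0.554 and 0.377), as was replicate 5 in AFB1 versus CON (0.354). The labels give no pairing, and whether libraries of one number share a factor was not tested. Depth limits CLDN14, CLDN15 and CLDN3, with as few as 25, 25 and 63 counts in a library.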
